A study of Mus musculus with 8 samples.

Results

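The genes described here encode nucleoporins, the proteins of the nuclear pore complex, and the soluble factors that carry cargo through the pore. They were taken by symbol from the platform annotation: every Nup, Kpna or Kpnb, Xpo, Ipo and Tnpo symbol with a number, and Ran, Ranbp1, Ranbp2, Rangap1, Rcc1, Tpr and Cse1l. This gave 41 of 16593 gene symbols, covered by 58 probes, and each gene was read from its brightest probe. Tpr, the filament protein of the nuclear basket, had no probe in the annotation used here. Of the 41 genes, 38 were bright enough to be tested, with the mean of both genotypes above the brightness filter for all 38. The probes of Kpna4, Nup153 and Nup188 lay below the filter in both genotypes, and these genes were not tested.

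The pore is built from ring-shaped scaffolds, among them the Y complex and the inner ring, which hold a central channel lined by phenylalanine-glycine (FG) repeats. Importins bind cargo in the cytoplasm and release it in the nucleus when they meet Ran bound to GTP, and exportins bind cargo together with Ran-GTP and release it in the cytoplasm. The direction comes from Rcc1, a chromatin-bound exchange factor that loads Ran with GTP in the nucleus, and from Rangap1, which with Ranbp1 and Ranbp2 makes Ran hydrolyse GTP in the cytoplasm. In dividing cells the pore is taken apart and rebuilt at each mitosis, and Ran-GTP and importins also act in spindle assembly.

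Total RNA of cerebella taken from mice at embryonic day 17.5 was hybridised to Illumina BeadArrays, with an array per animal. The conditional knockout (CKO) group held 4 animals of genotype Pals1 fl/fl;Cre+ with the hGFAP-Cre transgene, and the WT group held 4 animals of genotype Pals1 fl/fl;Cre-, so that both groups carry the floxed allele. Per the series design, the human GFAP promoter of the transgene deletes Pals1 in most cerebellar neurons and glia, which leaves the allele intact in other cells of the tissue. Mpp5 is the gene of Pals1, which holds together an apical polarity complex, and the series title concerns the proliferation of cerebellar progenitors without it.

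Mpp5 read 92.8, 80.2, 87.0 and 77.5 raw intensity units on the CKO arrays, against 156.2, 152.7, 143.8 and 139.7 on the WT arrays, and fell by 0.87 on the log2 scale (SE 0.07, limma adjusted p = 8.47e-06). An exact two-sided permutation test over the 70 assignments of the arrays gave p = 0.0286, the smallest they allow. The CKO mean of this Mpp5 probe, 6.20 on the log2 scale, lay below the brightness filter at 6.26, and the WT mean was 7.06. A second Mpp5 probe, itself below the filter, changed by 0.032 (limma adjusted p = 0.878 over all probes). Array medians were 118.7 to 133.5 in CKO and 124.1 to 132.3 in WT. Over all genes tested, 8.64% were lower in CKO and 9.15% higher at an adjusted p below 0.05 (limma). Of 12 tested markers of dividing cells 11 were lower in CKO and 0 higher, with a median change of -0.85 and a summed normalized intensity of 6668 to 10598 in CKO against 13677 to 15992 in WT. On that list CKO.3 stood apart, with a mean deviation from the 8-array mean of 0.0093 against -0.61 to -0.45 on the other CKO arrays and 0.30 to 0.54 on the WT arrays. Granule cell progenitor markers were lower for 7 of 7 tested genes, Purkinje cell markers higher for 4 of 6, microglia markers higher for 7 of 7 and endothelial markers higher for 2 of 5, while 0 of 4 glial and 0 of 2 erythroid markers passed in either direction. Of 4 choroid plexus markers 1 was lower, and there too CKO.3 stood apart, with a mean deviation of 0.26 against -0.28 to -0.18 on the other CKO arrays and -0.00032 to 0.22 on the WT arrays. The granule cell progenitor genes Atoh1 and Pax6 and the Purkinje cell genes Calb1 and Pcp4 were below the brightness filter, and are named here after their values were seen. Xist, which is transcribed from the inactive X, was dim on all 4 CKO arrays (112.1 to 116 raw units) and on WT.3 (122.9). It was bright on the other WT arrays (830.9 to 1211). As read from the Xist probe alone, the sex of the embryos was unevenly spread over the genotypes. In whole tissue, fewer cells of a type and less RNA per cell cannot be told apart.

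Most nuclear transport genes did not pass the threshold between the genotypes, and the genes that passed were nucleoporins, Ran cycle genes and importin alphas. Of 38 tested genes 9 were lower in CKO, 2 were higher and 27 did not pass, and 26 had a change below 0 (limma, Benjamini-Hochberg adjusted p below 0.05 over 12912 genes). Over all genes tested, 8.64% were lower and 9.15% were higher by the same rule, 17.8% in either direction, and 47.8% had a change below 0, so the share of transport genes that were lower, 23.7%, stood above the share over all genes, while the 2 that were higher did not. The median change was -0.047 on the log2 scale over the 38 genes and 0.0075 over all genes tested. Changes were small, from -0.52 for Nup210 to 0.31 for Ran. The groups did not overlap for 9 genes that were lower in CKO and 3 that were higher, against 10.2% and 10.9% of all genes. With the Xist level as a covariate 2 transport genes were lower and 0 higher, and over all genes 430 (3.33%) were lower and 362 higher. When arrays were scaled to a common median 10 transport genes were lower and 0 higher, and over all genes 1337 (10.4%) were lower and 792 higher.

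**Figure D1:**
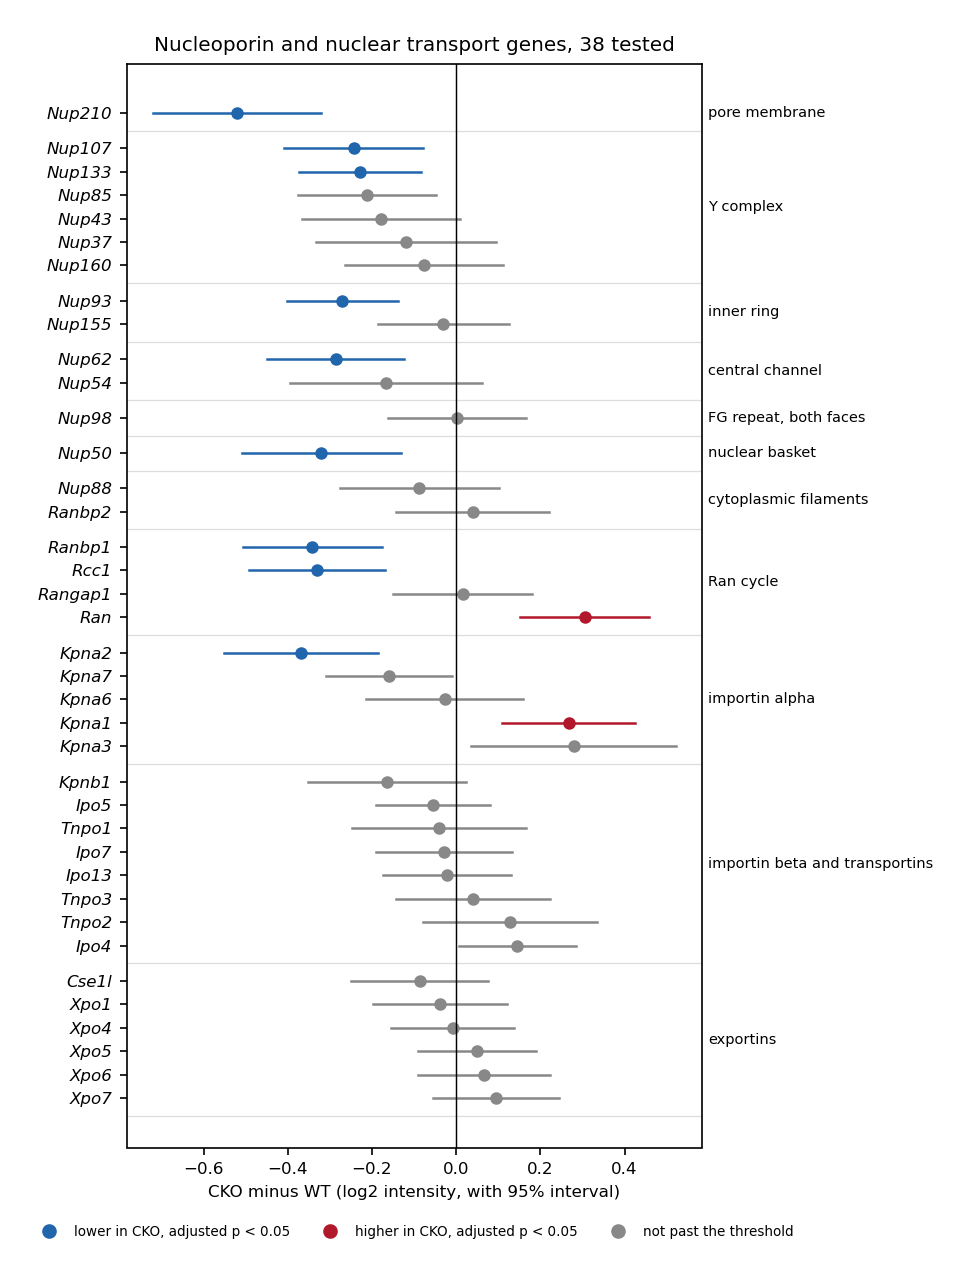
Change of each of the 38 tested nuclear transport genes, CKO minus WT on the log2 scale, as a point with its 95% interval, grouped by role in the pore or the transport cycle. Blue marks the 9 genes lower in CKO, red the 2 genes higher (Ran and Kpna1) and grey the 27 that did not pass. In the exportin group and the importin beta and transportin group 0 genes are blue or red, where 17.8% of all genes tested passed in either direction.

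The Ran system split by component. Ranbp1, the cytoplasmic protein that stimulates GTP hydrolysis by Ran together with Rangap1, read 6657, 5736, 6782 and 5196 raw units on the CKO arrays, against 8610, 8722, 8105 and 6718 on the WT arrays. CKO.3 was above WT.4 in raw units, with no other overlap, and on the normalized scale the groups did not overlap. Ranbp1 averaged 12.59 ± 0.094 in CKO and 12.93 ± 0.11 in WT (log2, SD, n = 4 each), a fall of 0.34 (SE 0.08, limma adjusted p = 0.00777). A second Ranbp1 probe lay below the brightness filter and changed by -0.037 (limma adjusted p = 0.861 over all probes), and with the mean of both probes the gene changed by -0.19 (limma adjusted p = 0.0458; over the alternatives 0.00338 to 0.0909).

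Rcc1, which loads Ran with GTP on chromatin, read 425.0, 399.0, 460.4 and 370.1 raw units on the CKO arrays, against 555.5, 533.0, 567.6 and 536.7 on the WT arrays. All 4 CKO values were below all 4 WT values. Rcc1 averaged 8.69 ± 0.071 in CKO and 9.02 ± 0.11 in WT (log2, SD, n = 4 each) and fell by 0.33 (SE 0.07, limma adjusted p = 0.00827). It was the only called member that stayed past the threshold with the Xist level as a covariate (-0.49, limma adjusted p = 0.0274, over the alternatives 0.00268 to 0.0644).

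Ran itself, the small GTPase, went the other way. Its probe read 953.5, 753.8, 810.1 and 690.4 raw units on the CKO arrays, against 761.4, 727.9, 609.3 and 659.0 on the WT arrays. The raw values overlapped, and on the normalized scale every CKO array was above every WT array. Ran averaged 9.66 ± 0.097 in CKO and 9.35 ± 0.062 in WT (log2, SD, n = 4 each) and rose by 0.31 (SE 0.07, limma adjusted p = 0.00959). With median scaling the rise was 0.25 (limma adjusted p = 0.0609, over the alternatives 0.00521 to 0.114). Whether this probe separates Ran from closely related gene copies was not tested. Rangap1, the GTPase-activating protein, read 8606, 7323, 7096 and 7656 raw units on the CKO arrays, against 8535, 8748, 7186 and 7667 on the WT arrays. These ranges overlapped, and its change was 0.016 (95% interval -0.15 to 0.18, limma adjusted p = 0.923).

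**Figure D2:**
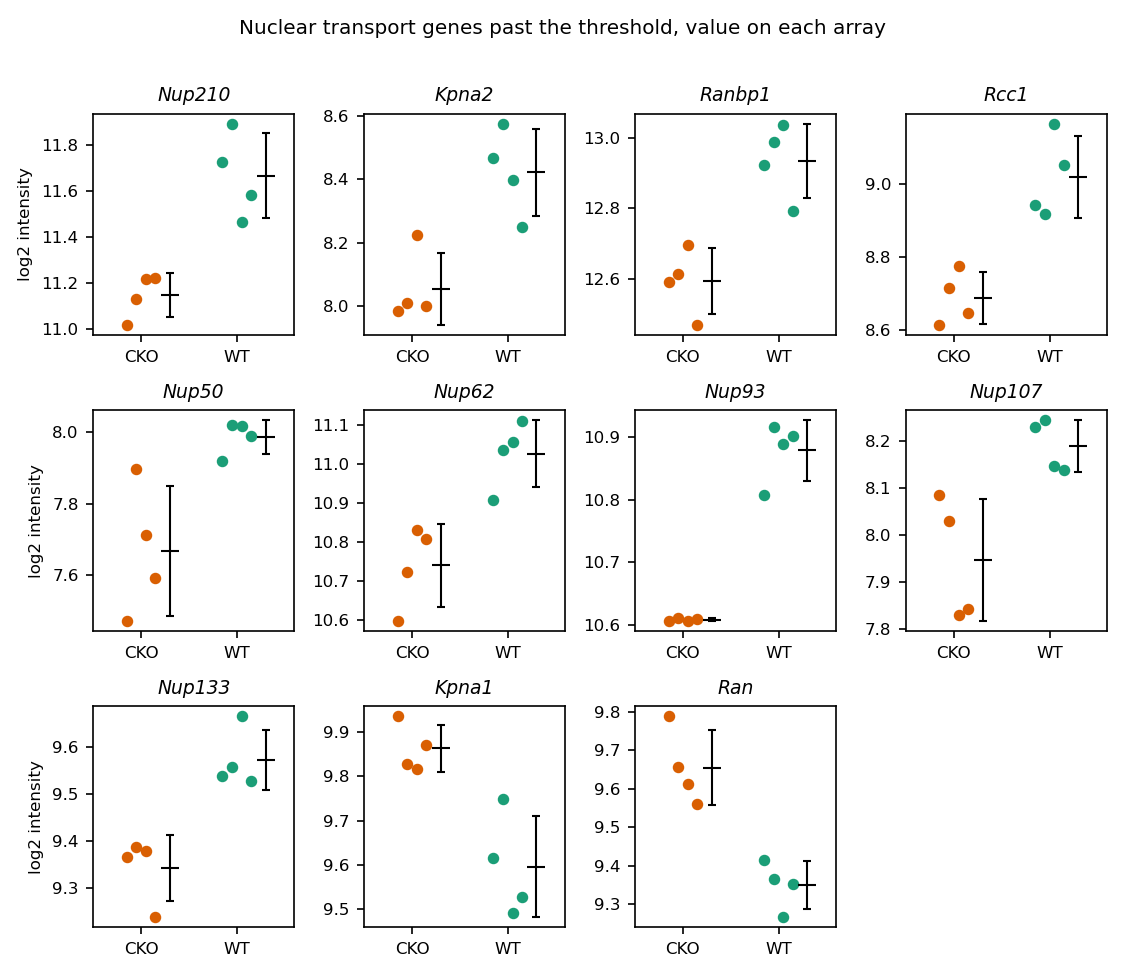
Normalized log2 intensity on each array for the 11 nuclear transport genes past the threshold, CKO left and WT right in each panel, with the mean and SD (n = 4) as bars. No vertical axis starts at 0 and each panel has its own scale. The CKO and WT points do not overlap in any panel: CKO lies below WT for 9 genes and above WT for Kpna1 and Ran.

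The importin alpha adaptors, which recognise the nuclear localisation signal of a cargo and hand it to importin beta, also differed among themselves. In mouse embryonic stem cells Kpna2 is known to be the main importin alpha of the undifferentiated state, and Kpna1 becomes more abundant in neural differentiation. Kpna2 read 280.7, 251.2, 315.7 and 239.6 raw units on the CKO arrays, against 400.0, 422.6, 336.4 and 312.1 on the WT arrays. The raw values overlapped at CKO.3 and WT.4, which are the highest CKO and the lowest WT value, and the normalized values did not overlap. Kpna2 averaged 8.05 ± 0.11 in CKO and 8.42 ± 0.14 in WT (log2, SD, n = 4 each) and fell by 0.37 (SE 0.08, limma adjusted p = 0.00902). CKO.3, at 8.22, stood above the other CKO arrays, at 7.98 to 8.01.

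Kpna1 read 1058, 841.4, 929.7 and 857.2 raw units on the CKO arrays, against 876.7, 935.8, 699.8 and 743.5 on the WT arrays. The raw ranges overlapped, with WT.2 above 3 of the CKO arrays, and the normalized ranges did not. Kpna1 averaged 9.86 ± 0.054 in CKO and 9.60 ± 0.12 in WT (log2, SD, n = 4 each) and rose by 0.27 (SE 0.07, limma adjusted p = 0.0228). The call was lost without CKO.1, CKO.4, WT.3 or WT.4 (limma adjusted p from 0.0565 to 0.0712) and with median scaling (0.22, limma adjusted p = 0.111). Kpna3, an importin alpha of the same adaptor family, was at 0.28 (95% interval 0.04 to 0.52, limma adjusted p = 0.110), with overlapping groups. Kpna7, described as the importin alpha of oocytes and early embryos, was at -0.16 (limma adjusted p = 0.142) on a probe near the filter, and Kpna6 at -0.027 (limma adjusted p = 0.884).

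Of the 8 tested genes of the importin beta and transportin group 0 passed (limma), where 17.8% of all genes tested passed in either direction. With so few genes 0 cannot be told apart from that share. In this group 1 gene, Ipo4, had an unadjusted p below 0.05 (limma). Changes ran from -0.16 for Kpnb1 to 0.15 for Ipo4, with 95% intervals that reached from -0.35 to 0.33. Kpnb1, importin beta itself, read 1545, 1471, 1870 and 1454 raw units on the CKO arrays, against 2088, 2102, 1547 and 1704 on the WT arrays. CKO.3, WT.3 and WT.4 lay within the other group's range, and the change of -0.16 had a limma adjusted p of 0.232. Without both CKO.3 and WT.3 Kpnb1 changed by -0.27 (limma adjusted p = 0.0354, the lowest over the alternatives, which reach 0.991), and with the Xist covariate by 0.0032. Ipo4, an importin known for histone cargo, was at 0.15 (limma adjusted p = 0.146), and its CKO values of 9.03 to 9.18 were all above its WT values of 8.92 to 8.98 on the log2 scale. Ipo5 was at -0.055, Ipo7 at -0.029, Ipo13 at -0.022, Tnpo1 at -0.040, Tnpo2 at 0.13 and Tnpo3 at 0.040. The probes of Ipo7, Tnpo1 and Tnpo3 had group means below the median probe of the array, 6.84, in both genotypes.

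Of the 6 exportins 0 passed (limma), where 17.8% of all genes tested passed in either direction. With so few genes 0 cannot be told apart from that share. Among the exportins 0 had an unadjusted p below 0.05 (limma), with changes from -0.087 to 0.095 and 95% intervals from -0.25 to 0.24. Cse1l, which returns importin alpha to the cytoplasm, read 888.5, 720.8, 884.7 and 820.4 raw units on the CKO arrays, against 966.3, 1068, 830.6 and 830.7 on the WT arrays. Its groups overlapped and its change was -0.087 (limma adjusted p = 0.501). Xpo1, the general exportin for proteins with a nuclear export signal, read 107.2, 90.9, 96.5 and 105.6 raw units on the CKO arrays, against 112.3, 108.9, 98.4 and 102.2 on the WT arrays. Both Xpo1 probes had group means below the median probe, and they changed by -0.038 and -0.045. Xpo5, which exports precursor microRNAs, was at 0.050, Xpo6, the exportin of actin, at 0.066, Xpo7 at 0.095 and Xpo4 at -0.0077.

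The largest change of any transport gene was that of Nup210, a membrane-spanning nucleoporin that is known to be needed for neural differentiation of mouse embryonic stem cells. It read 2239, 2062, 2447 and 2216 raw units on the CKO arrays, against 3742, 4184, 2736 and 2981 on the WT arrays. Every CKO value was below every WT value, and WT.3 was the lowest of the WT arrays. Nup210 averaged 11.15 ± 0.096 in CKO and 11.67 ± 0.18 in WT (log2, SD, n = 4 each) and fell by 0.52 (SE 0.09, 95% interval -0.72 to -0.32, limma adjusted p = 0.00195), a fall by 30.3% in normalized intensity. With the Xist level as a covariate the change was -0.29 (limma adjusted p = 0.205, over the alternatives 4.11e-04 to 0.205), and on the 5 arrays with dim Xist it was -0.32.

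All 6 genes assigned here to the Y complex, the outer scaffold ring, had changes below 0, as did 47.8% of all genes, and 2 were lower past the threshold, as were 8.64% of all genes. These 6 are the genes of the symbol rule given that role, with 1 role a gene, and not the whole complex. Nup160 turned to 0.050 with the Xist covariate and to 0.035 on the 5 arrays with dim Xist. Nup133, without which mouse embryos are known to have impaired neural differentiation, read 708.2, 624.6, 691.2 and 551.5 raw units on the CKO arrays, against 832.3, 821.2, 782.9 and 743.9 on the WT arrays. The groups did not overlap. Nup133 averaged 9.34 ± 0.070 in CKO and 9.57 ± 0.063 in WT (log2, SD, n = 4 each) and fell by 0.23 (SE 0.07, limma adjusted p = 0.0311). A second bright probe of Nup133 changed by -0.31 (limma adjusted p = 0.0329 over all probes, of which 5.74% were lower and 5.72% higher), and the remaining, dim probe by -0.086 (limma adjusted p = 0.603 over all probes).

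Nup107, the partner of Nup133 in the stem of the Y, read 298.3, 253.9, 242.3 and 218.1 raw units on the CKO arrays, against 341.2, 334.8, 286.2 and 292.8 on the WT arrays. CKO.1 was inside the WT range in raw units, and the normalized groups did not overlap. Nup107 averaged 7.95 ± 0.13 in CKO and 8.19 ± 0.055 in WT (log2, SD, n = 4 each) and fell by 0.24 (SE 0.08, limma adjusted p = 0.0423). The Nup107 call was lost without any single array other than CKO.1 and CKO.2 (limma adjusted p from 0.0566 to 0.123), and that of Nup133 without any single array other than CKO.2, CKO.3 and WT.4 (limma adjusted p from 0.0534 to 0.0993). With an offset of 16 Nup107 was at -0.28 (limma adjusted p = 0.0580, over the alternatives 0.0302 to 0.446) and Nup133 at -0.24 (limma adjusted p = 0.0538, over the alternatives 0.0163 to 0.143). The other genes assigned to the Y complex were Nup85 (-0.21, limma adjusted p = 0.0740), Nup43 (-0.18, limma adjusted p = 0.186), Nup37 (-0.12) and Nup160 (-0.076). Nup85 passed without CKO.1 (limma adjusted p = 0.0459) and with median scaling (limma adjusted p = 0.0475), and Nup43 passed with the Xist covariate (-0.43, limma adjusted p = 0.0395).

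Of the inner ring, Nup93, which anchors the channel nucleoporins to the scaffold, was lower. It read 1678, 1449, 1602 and 1447 raw units on the CKO arrays, against 1973, 2084, 1820 and 1883 on the WT arrays. The groups did not overlap, and the CKO arrays lay close together after normalization. Nup93 averaged 10.61 ± 0.0023 in CKO and 10.88 ± 0.049 in WT (log2, SD, n = 4 each) and fell by 0.27 (SE 0.06, limma adjusted p = 0.00838). Nup155, of the same ring, was at -0.030 (limma adjusted p = 0.831), and its other 2 probes at -0.056 and -0.12.

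In the central channel Nup62, an FG-repeat protein of the transport barrier, read 1666, 1559, 1868 and 1639 raw units on the CKO arrays, against 2111, 2268, 2016 and 2159 on the WT arrays. All CKO values were below all WT values. Nup62 averaged 10.74 ± 0.11 in CKO and 11.03 ± 0.086 in WT (log2, SD, n = 4 each) and fell by 0.29 (SE 0.07, limma adjusted p = 0.0184), a call lost without WT.2 or CKO.1 (limma adjusted p up to 0.0629). Nup54, which sits in a complex with Nup62, was at -0.17 (limma adjusted p = 0.329). Nup98, an FG-repeat protein found on both faces of the pore, was at 0.0016 with a 95% interval of -0.16 to 0.17, and its second probe was at 0.011.

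Nup50, a mobile protein of the nuclear basket that helps to release importin cargo, read 198.8, 234.1, 223.8 and 184.5 raw units on the CKO arrays, against 274.8, 289.5, 262.2 and 264.8 on the WT arrays. The groups did not overlap. Nup50 averaged 7.67 ± 0.18 in CKO and 7.99 ± 0.047 in WT (log2, SD, n = 4 each) and fell by 0.32 (SE 0.09, limma adjusted p = 0.0225). The call was lost without CKO.1, CKO.4, WT.2 or WT.3 (limma adjusted p from 0.0552 to 0.0721). A second Nup50 probe changed by -0.31 (limma adjusted p = 0.0103 over all probes) and the remaining probe by -0.17 (limma adjusted p = 0.211 over all probes). On the cytoplasmic face Nup88 was at -0.087 (limma adjusted p = 0.563), and its 4 probes ran from -0.18 to 0.12. Ranbp2, the large cytoplasmic filament protein that binds Rangap1, read 97.1, 102.1, 115.7 and 101.0 raw units on the CKO arrays, against 113.6, 98.0, 100.7 and 104.3 on the WT arrays. The ranges overlapped, on a dim probe, and the change was 0.039 (limma adjusted p = 0.813).

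Promoters are shown as examples for 3 genes that fell and for Ran, the only gene that rose and had a promoter sequence here. They do not stand for their groups: Nup133, which also fell, had no match to any of the 5 motifs below. RefSeq windows of 250 bases before to 50 after the start (GRCm38.p6) were matched by symbol for 33 of the 41 genes, in 39 windows. Each window was searched on both strands for 5 motifs: E2F sites (TTTCCCGC, TTTCGCGC, TTTGCCGC or TTTGGCGC), the cell cycle homology region or CHR (TTTGAA), the CCAAT box (CCAAT), the E-box (CACGTG) and the palindromic NRF1 site, whose letters are the last run of capitals in the Nup62 promoter. The 150 bases before the start are given 5′ to 3′ on the gene's strand, with matches to these letters in capitals.
Ranbp1, chr16:18248695-18248844, minus strand: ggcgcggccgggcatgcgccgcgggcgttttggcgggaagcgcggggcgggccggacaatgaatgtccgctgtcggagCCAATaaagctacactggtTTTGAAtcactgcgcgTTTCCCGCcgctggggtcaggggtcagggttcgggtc
Kpna2, chr11:106999526-106999675, minus strand: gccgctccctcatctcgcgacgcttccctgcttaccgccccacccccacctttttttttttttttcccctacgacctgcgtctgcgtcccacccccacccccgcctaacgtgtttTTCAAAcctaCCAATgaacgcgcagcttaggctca
Nup62, chr7:44815938-44816087, plus strand: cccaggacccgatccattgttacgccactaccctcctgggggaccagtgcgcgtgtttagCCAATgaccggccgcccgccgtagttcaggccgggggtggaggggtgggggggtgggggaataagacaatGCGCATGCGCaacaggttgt
Ran, chr5:129020006-129020155, plus strand: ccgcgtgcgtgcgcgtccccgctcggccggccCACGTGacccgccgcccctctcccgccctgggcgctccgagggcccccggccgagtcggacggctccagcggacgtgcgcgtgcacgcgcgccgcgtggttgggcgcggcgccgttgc

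Counting from -1 at the base before the start, the Ranbp1 window held the CCAAT box at -72, the CHR letters at -53 and an E2F site at -37. The Kpna2 window held the CHR letters at -35, read on the other strand, and a CCAAT box at -25, with another past the start. The Nup62 window held CCAAT boxes at -90 and, outside the stretch shown, at -242, and the NRF1 letters at -20, and the Ran window an E-box at -118 and, outside the stretch shown, the NRF1 letters at -205. Over the 9 genes that were lower, all with a window, E2F letters were found in 2 (Nup210 and Ranbp1), the CHR in 3 (Kpna2, Ranbp1 and Rcc1), the CCAAT box in 5, the E-box in 1 (Nup93) and the NRF1 letters in 3 (Nup107, Nup50 and Nup62). Over the 20 genes with a window that did not pass, the counts were 1, 7, 11, 5 and 1 in the same order of motifs. These are counts of genes with a match in any of their windows, whereas the shares that follow are of windows. Of the 39 windows of transport genes 7.69% held E2F letters, 28.2% the CHR, 48.7% the CCAAT box, 20.5% the E-box and 12.8% the NRF1 letters. Of 13181 windows of tested genes 3.27% held E2F letters, 13.0% the CHR, 37.9% the CCAAT box, 8.96% the E-box and 1.57% the NRF1 letters. Of all 32851 windows in the table the shares were 2.26%, 17.9%, 37.4%, 7.15% and 0.971%. These are matches of letters in a window, not measured binding.

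The 9 lower genes were chosen for their difference between the genotypes, which fixes the sign of their deviations by array, so these are given as a description. The mean deviation of the 9 lower genes from their 8-array means was -0.21, -0.12, -0.11 and -0.20 on CKO.1 to CKO.4, against 0.14, 0.21, 0.18 and 0.12 on WT.1 to WT.4. CKO.3 was the highest CKO array for 4 of the 9 genes, Kpna2, Ranbp1, Rcc1 and Nup62. CKO.3 had the highest mean of the CKO arrays for these 9 genes, at -0.11, but only narrowly above CKO.2, at -0.12. On the dividing-cell list CKO.3 was at 0.0093, far above CKO.2, the next highest CKO array, at -0.45. The part of dividing cells in the fall of the 9 genes was not tested. Over all 38 genes the mean deviation was -0.046 to -0.026 in CKO and 0.021 to 0.071 in WT.

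**Figure D3:**
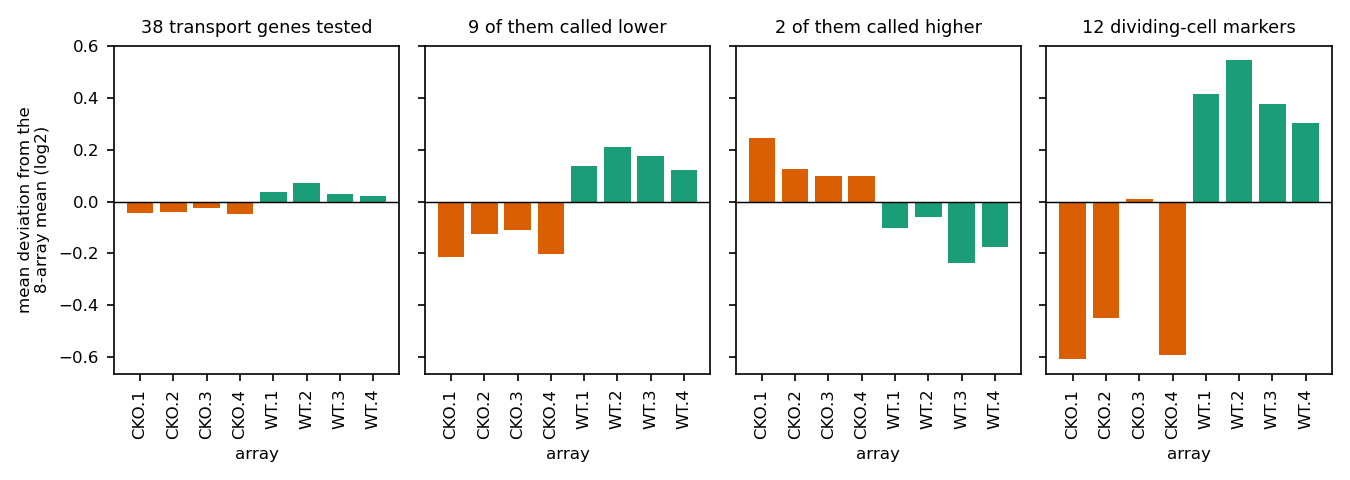
Mean deviation from the 8-array mean on the log2 scale, by array, CKO left of WT, for the 38 transport genes tested, the 9 called lower, the 2 called higher and 12 markers of dividing cells. The bars of the 9 lower genes are below 0 on all 4 CKO arrays, and on the dividing-cell markers CKO.3 alone among the CKO arrays is at about 0 (0.0093). The 9 and the 2 genes were chosen by their difference between the genotypes.

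Because Xist was bright on 3 WT arrays and no CKO array, the 11 calls were also read with that level taken into account. With the Xist level as a covariate all 11 genes kept their direction, with changes of -0.49 to -0.20 for the 9 lower genes and 0.38 to 0.39 for the 2 higher genes, and 10 of the 11 lost their call (limma adjusted p from 0.0556 to 0.391 for these). On the 5 arrays with a dim Xist probe, the 4 CKO arrays and WT.3, the changes were -0.47 to -0.20 and 0.38 to 0.39. WT.3 was the lone WT array there, and its spread was taken to be that of the CKO arrays. The normalized CKO and WT values of the 11 genes do not overlap in the main fit, so their direction against WT.3 was given in advance. Since WT.3 is also the only dim WT array in the covariate fit, the 2 readings are not independent. Over all genes 430 were lower and 362 higher with the covariate, 166 and 131 on the 5 arrays.

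Genes of the nuclear pore, of RNA export and of the nuclear envelope that the symbol rule does not take included larger changes. Of 34 tested genes 11 were lower in CKO and 3 higher, where 8.64% and 9.15% of all genes were, and the median change was -0.11 against 0.0075 over all genes. The list was drawn up with earlier results of these data known, so these shares are a description. Lbr, the lamin B receptor that ties heterochromatin to the envelope, averaged 10.38 ± 0.33 in CKO and 11.36 ± 0.082 in WT (log2, SD, n = 4 each) and fell by 0.97 (SE 0.13, limma adjusted p = 3.47e-04). Lmnb1, lamin B1, averaged 11.90 ± 0.11 in CKO and 12.51 ± 0.11 in WT and fell by 0.61 (limma adjusted p = 3.07e-04), and Tmpo, which encodes the lamina-associated polypeptide 2 proteins, fell by 0.62 (limma adjusted p = 5.21e-04). Lmna, the A-type lamin gene that is known to be more active in differentiated cells, went the other way: it averaged 9.37 ± 0.10 in CKO and 8.82 ± 0.066 in WT (log2, SD, n = 4 each) and rose by 0.55 (SE 0.07, limma adjusted p = 3.20e-04). With the Xist covariate Lbr (-0.85, limma adjusted p = 0.0451), Lmnb1 (-0.58, limma adjusted p = 0.0299), Tmpo (-0.56, limma adjusted p = 0.0492) and Lmna (0.59, limma adjusted p = 0.0198) kept their calls. On the 5 arrays with dim Xist Lmna kept its call (0.59, limma adjusted p = 0.0495), and Lbr (-0.85, limma adjusted p = 0.0948), Lmnb1 (-0.59, limma adjusted p = 0.0515) and Tmpo (-0.57, limma adjusted p = 0.0679) lost theirs.

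Among pore proteins of this list, Nupl2, a cytoplasmic nucleoporin of mRNA export, fell by 0.42 (limma adjusted p = 8.11e-04), Ahctf1, which starts pore assembly on chromatin, by 0.33 (limma adjusted p = 0.0287) and Ndc1, a membrane nucleoporin, by 0.30 (limma adjusted p = 0.0275). Of the mRNA export receptor, Nxt1 fell by 0.41 (limma adjusted p = 0.00447) and Nxf1 by 0.27 (limma adjusted p = 0.0149). Lmnb2, lamin B2, fell by 0.30 (limma adjusted p = 0.00817), Sun2, which links the lamina to the cytoskeleton, by 0.32 (limma adjusted p = 0.0167) and Rangrf, a Ran-binding protein, by 0.47 (limma adjusted p = 0.00915). Ranbp6, an importin relative, rose by 0.37 (limma adjusted p = 0.0116), and Tor1a, an ATPase of the endoplasmic reticulum and envelope lumen, rose by 0.22 (limma adjusted p = 0.0454). Leaving out 1 array ended 4 of these calls. Ndc1 was lost without a CKO array other than CKO.3 and without WT.1 or WT.2 (limma adjusted p up to 0.0930), and Ahctf1 without CKO.1, CKO.2, WT.3 or WT.4 (limma adjusted p up to 0.0828). Nxf1 was lost without WT.2 (limma adjusted p = 0.0513), and Tor1a kept its call only without CKO.3 or WT.4. With an offset of 16 Ahctf1 (limma adjusted p = 0.0508) and Tor1a (limma adjusted p = 0.0607) were lost, and Tor1a also when arrays were scaled to a common median (limma adjusted p = 0.102) and with no brightness filter (limma adjusted p = 0.0564). Averaging all probes per gene put Ranbp6 at 0.17 (limma adjusted p = 0.114) and Tor1a at 0.11 (limma adjusted p = 0.266). With the replicate block Ndc1 (limma adjusted p = 0.0559) and Tor1a (limma adjusted p = 0.0679) were lost. With the Xist covariate Ndc1, Ahctf1, Nxf1, Sun2, Ranbp6 and Tor1a lost their calls (limma adjusted p from 0.0799 to 0.524).

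**Figure D4:**
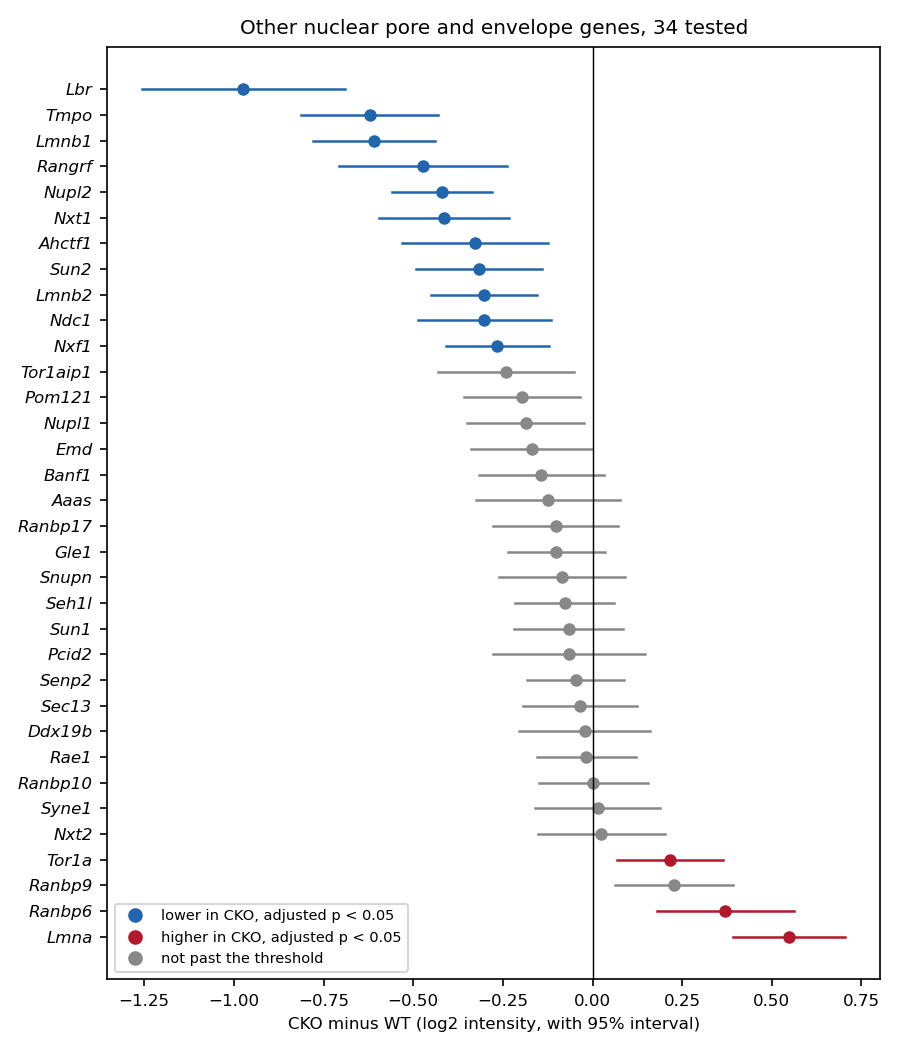
Change of each of 34 tested genes of the nuclear pore, RNA export and nuclear envelope outside the symbol rule, CKO minus WT on the log2 scale, with the 95% interval. Blue marks 11 genes lower in CKO, from Lbr (-0.97) to Nxf1 (-0.27), red marks 3 higher, Lmna (0.55), Ranbp6 (0.37) and Tor1a (0.22), and grey the 20 that did not pass.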

How the data were processed

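Per the labels, the authors exported probe intensity with BeadStudio; this table is on a linear scale and was not normalized between arrays, since array medians differ. The other deposited table holds log2 values that the authors quantile-normalized, per its values: every array has a median of 6.98. The tool of that step, its version and the scanner's background handling are not given in the sources used here.

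Intensities were corrected with normexp (offset 50), taken to log2 and then quantile-normalized in limma 3.58.1 (R 4.3.3). Symbols from the platform annotation covered 23978 of 25697 probes. For each gene the brightest probe (by mean log2 of 8 arrays) was kept, and 12912 genes above 6.26, the 25% quantile of probe means, were tested. lmFit and eBayes were run with genotype as the only term, two-sided, with Benjamini-Hochberg adjustment over all genes tested. The offset pulls changes of dim genes towards 0. The members, lists and tests were chosen with earlier results of these data known. Naming followed a written rule: values per array for called members and for the Ran system, Xpo1, Cse1l and Kpnb1, changes for all others, and called genes only from the second list. On simulated data for this comparison (12912 genes, 200 changed) 77% of changes of 0.5 log2 and 98% of changes of 1 log2 were recovered, with 7 false calls among 182. Changes below 0.5 log2, the size of every called transport gene except Nup210, were not simulated, so their recovery is not known. The number of arrays limits the precision. Alternatives covered background, offset, scaling, the authors' values, filters, probe rule, array weights, a replicate block, the Xist level and left-out arrays. Figures used matplotlib 3.10.9.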

Additional observations from a re-analysis of the deposited data

Results flagged for a closer look

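A sample far from the other 3 of its group was found in 5 of 106 groups of 4 arrays checked, and chance alone marks about 1 in 20. Kpna2 in CKO.3 was at 8.22 on the log2 scale, against 7.98 to 8.01 on the other CKO arrays, and without CKO.3 Kpna2 remained called. Nup133 in CKO.4 was at 9.24, against 9.37 to 9.39 on the other CKO arrays. Nup37 in CKO.1 was at 6.72, against 6.80 to 6.81 on the other CKO arrays. Ranbp6 in CKO.3 was at 7.86, against 8.12 to 8.16 on the other CKO arrays. Tmpo in WT.2 was at 9.85, against 9.57 to 9.60 on the other WT arrays.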

How the results depend on the processing

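The 11 transport genes called were the same 11 without background correction, with the authors' log2 table, with either other filter, with both other probe rules, with array weights and with the replicate block. No called gene of either list changed direction under any alternative. The counts lower and higher were 7 and 2 with an offset of 16, under which 948 of all genes were lower and 980 higher. With median scaling they were 10 and 0, and 1337 of all genes were lower and 792 higher. The main fit gave 1115 and 1182 over all genes. With the Xist covariate 2 transport genes were lower and 0 higher, 7 and 1 of the second list, and 430 and 362 of all genes. On the 5 arrays with dim Xist, an alternative chosen after seeing the data, the counts were 0 and 0, 2 and 1, and 166 and 131 (limma). Without both CKO.3 and WT.3, 7 transport genes were lower and 1 higher, and over all genes 1179 (9.13%) were lower and 1144 higher. When 1 array was left out, the lower count ran from 5 (without WT.2) to 9 and the higher count from 1 (without WT.3, WT.4, CKO.1 or CKO.4) to 2, against 9 to 11 and 2 to 4 for the second list and 796 to 1267 lower and 779 to 1299 higher over all genes. The median change of the transport genes, -0.047, was -0.067 with an offset of 16, -0.080 with median scaling, -0.081 with the filter at the median probe, -0.019 with the Xist covariate and -0.086 to -0.048 with 1 array left out. The second Mpp5 probe, below the filter, was at 0.032 (limma adjusted p = 0.878 over all probes). The cause of these shifts was not tested. Nothing in the labels pairs the animals by replicate number. Deviations of same-numbered arrays correlated across genes at 0.061, -0.036, 0.15 and -0.047, and 1 of 4 CKO arrays correlated best with the WT array of its number. With so few arrays these values cannot exclude a pairing. With the replicate block 9 transport genes were lower and 2 higher, against 10 and 2 of the second list, which lost Ndc1 and Tor1a, and 1059 and 1091 of all genes. Detection p-value filters and a chip block were not run, since the columns used here carry neither. Signal over background limits Kpna4, Nup153 and Nup188, which were not tested.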
